A study of Homo sapiens with 4 samples.

Results

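The mRNAs described here encode the enzymes and the carrier that use ceramide once it has been made. They are UGCG, SGMS1, CERT1, SMPD1, SMPD4, ASAH1, ACER3, SPHK2, SGPL1 and CERK, a list of 10 genes set by name, and 9 of the 10 had an entry in the deposited table of 12838 gene symbols. SMPD1, the acid sphingomyelinase gene, had none and was not analysed here. The libraries came from RNA immunoprecipitation of LM2-4175 cells, human breast cancer cells selected from MDA-MB-231 for growth in the lung. All carried a doxycycline-inducible CerS4 construct and were grown with 6 µg/mL puromycin and 1000 µg/mL hygromycin. There were 4 groups of 1 library each: Dox EXOSC10 and No Dox EXOSC10, precipitated with an antibody to the exosome nuclease EXOSC10, and Dox IgG and No Dox IgG, precipitated with control IgG. Dox cells received 5 µg/mL doxycycline for 48 h, and No Dox cells received none. The study asked how RNA bound to EXOSC10 is altered, in connection with the PD-L1 and Caprin-1 complex, when ceramide synthesis is switched on.

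Ceramide stands at the branch point of sphingolipid metabolism. It can be capped with glucose, turned into sphingomyelin after transport from the endoplasmic reticulum to the Golgi, phosphorylated, or cut by ceramidases to sphingosine, which is phosphorylated and finally cleaved. Sphingomyelinases run the sphingomyelin step backwards. CerS4 makes ceramide with long acyl chains, so the genes on the list encode the steps that lie downstream of the construct. EXOSC10 is a 3' to 5' exoribonuclease of the nuclear RNA exosome, which trims and degrades RNAs, among them short transcripts from upstream of active promoters.

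Total depth ranged from 3722940 reads in the No Dox IgG library to 7575989 in the Dox IgG library. Ribosomal RNA took 56.3% of the reads in the Dox EXOSC10 library, 75.8% in No Dox EXOSC10, 83.8% in Dox IgG and 71.7% in No Dox IgG, which left between 1023669 and 2408353 reads for other genes. Reads were estimated from CPM (reads scaled to a common total of 1000000), as the table holds no counts. Levels were scaled with TMM factors, the trimmed mean of ratios between libraries. Neither CERS4 nor CD274 (PD-L1) had an entry, so these libraries give no reading of the induced gene. All 10 markers listed for MDA-MB-231 cells had an entry. VIM had 4396, 2080, 2344 and 2893 reads in the Dox EXOSC10, No Dox EXOSC10, Dox IgG and No Dox IgG libraries, whereas S100A4 had 22.0, 0, 1.98 and 4 reads in the same order. Of 8 genes listed as low or absent in such cells, ESR1, EPCAM and CLDN3 had no entry and PGR, ERBB2, CDH1, GATA3 and KRT8 had one. Their summed level was 18.5 scaled CPM in Dox EXOSC10, 26.3 in No Dox EXOSC10, 18.6 in Dox IgG and 14.5 in No Dox IgG, and KRT8 had the most reads (111, 74.5, 19.0 and 7.50). Of markers of other cells, 2 of 9 for blood (LYZ and CD68), 2 of 4 for fibroblasts (COL1A1 and COL1A2) and 1 of 3 for endothelium (PECAM1) had an entry, and the defining genes PTPRC, HBB, DCN and VWF had none. The blood markers summed to 14.96, 27.6, 14.1 and 10.7 scaled CPM in the same order, the fibroblast markers to 9.26, 20.9, 17.0 and 8.80, and PECAM1 had 2.21, 2.47, 1.76 and 0.765. The part of ribosomal RNA and of such markers in the results was not tested.

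The windows upstream of UGCG, SGPL1 and SGMS1 are shown because UGCG and SGPL1 are the members whose EXOSC10 ratio lay above 0 beyond counting error with doxycycline, and SGMS1 is the member that passed the test of EXOSC10 against IgG. Each holds the 250 bases before the gene start used in the RefSeq promoter table (GRCh38.p14), read 5′ to 3′ on the strand of the gene, with GGGCGG or its reverse complement CCGCCC in capitals. They lie at chr9:111896564-111896813 (+ strand) for UGCG, chr10:70815698-70815947 (+ strand) for SGPL1 and chr10:50623957-50624206 (- strand) for SGMS1, the last of which lies inside the full span of its gene.
UGCG: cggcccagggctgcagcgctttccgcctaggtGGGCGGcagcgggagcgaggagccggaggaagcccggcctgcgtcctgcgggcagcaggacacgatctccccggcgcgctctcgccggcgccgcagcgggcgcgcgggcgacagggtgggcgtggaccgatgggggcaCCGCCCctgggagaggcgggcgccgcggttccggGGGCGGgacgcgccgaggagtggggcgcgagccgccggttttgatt
SGPL1: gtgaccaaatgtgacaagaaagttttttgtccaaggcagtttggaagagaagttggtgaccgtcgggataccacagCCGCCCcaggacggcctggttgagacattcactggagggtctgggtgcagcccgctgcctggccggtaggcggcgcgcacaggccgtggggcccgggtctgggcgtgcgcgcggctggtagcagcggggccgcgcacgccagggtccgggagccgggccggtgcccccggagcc
SGMS1: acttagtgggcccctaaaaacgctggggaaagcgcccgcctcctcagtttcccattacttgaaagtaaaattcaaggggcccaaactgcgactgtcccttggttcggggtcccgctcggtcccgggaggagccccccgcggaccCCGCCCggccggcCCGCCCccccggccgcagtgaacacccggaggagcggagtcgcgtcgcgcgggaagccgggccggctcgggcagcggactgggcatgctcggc
GGGCGG occurred 3 times in the UGCG window, 1 time in SGPL1 and 2 times in SGMS1, on either strand, and 42.6% of 35116 such windows hold it. Neither CCAAT (32.0% of windows) nor TATAAA (10.7%), both searched on both strands, was found in any of these 3 windows. The table gives values by gene symbol, and none for these windows.

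Each group was a single library, so differences between libraries carry no replicate check and no p-value. Ratios are log2 ratios of TMM-scaled CPM with a pseudocount of 0.2 CPM added, which understates the ratio of low genes. Values in parentheses are 95% intervals, by the exact Clopper-Pearson method applied to estimated reads. They cover counting error only, because each group was a single library. They may be too narrow even for that, because the labels name no molecular identifiers and PCR copies are not independent molecules. Only genes with 100 reads or more in the pair of libraries and at least a 2-fold difference count as higher or lower.

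**Figure D1:**
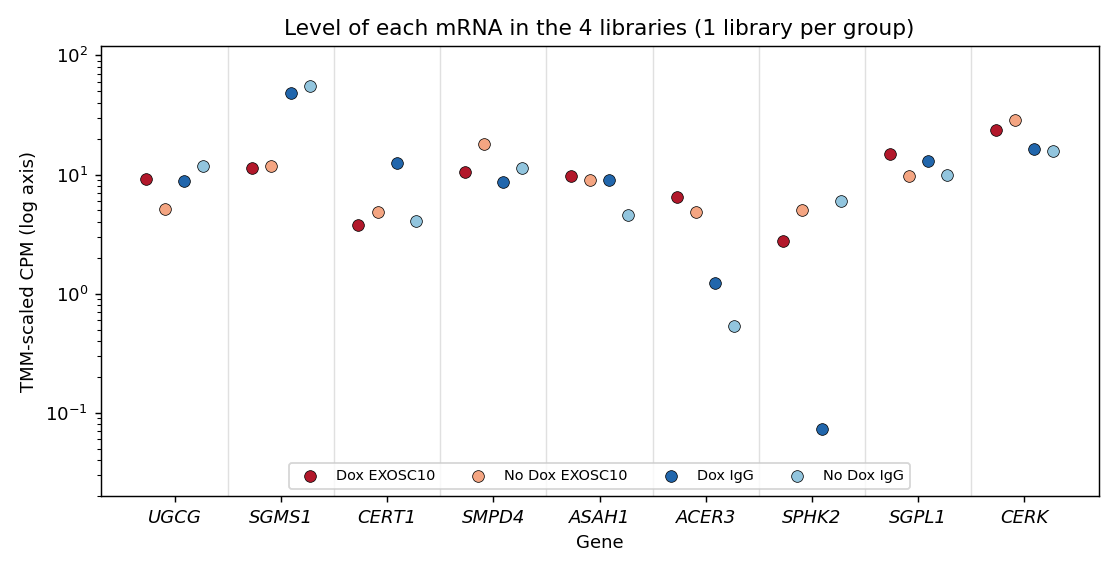
TMM-scaled CPM on a log axis for the 9 mRNAs, with 1 point for each of the 4 libraries. SGMS1 sits at 11.3 and 11.8 in the Dox and No Dox EXOSC10 libraries and at 48.0 and 55.1 in the Dox and No Dox IgG libraries, ACER3 shows the opposite order, and SPHK2 in Dox IgG rests on under 1 read.

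The primary comparison set EXOSC10-bound RNA of doxycycline-treated cells against that of untreated cells. None of the 7 members with 100 reads differed 2-fold. Among all 6585 genes with 100 reads, 5.83% were higher and 4.19% lower by that measure. The interval lay above 0 for UGCG and SGPL1 and below 0 for SMPD4, SPHK2 and CERK. Such intervals were common, since 2795 of the 11244 genes with at least 20 reads had one above 0 and 2751 one below. The median over the 9 members was -0.06 on the log2 scale, beside 0.02 over the 11244 genes with at least 20 reads. The members thus lay on both sides of equality.

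UGCG encodes the Golgi glucosyltransferase that makes glucosylceramide, the root of most glycosphingolipids. It had 130 reads in the Dox EXOSC10 library, 27.0 in No Dox EXOSC10, 30 in Dox IgG and 31.0 in No Dox IgG. In scaled CPM these were 9.26, 5.14, 8.79 and 11.9, so the No Dox EXOSC10 library stood below the other 3. The EXOSC10 ratio of doxycycline over untreated was 0.83 (0.24 to 1.51), or 1.77-fold, higher than that of 91.3% of genes with 100 reads. It was positive under all 5 scalings tried, from 0.72 to 1.85. Bulk libraries cannot tell fewer cells with an mRNA from less of it per cell, nor more mRNA in the cell from more of it bound, since no input RNA was analysed here.

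SGMS1, the main sphingomyelin synthase of the Golgi, had 159.0 reads in Dox EXOSC10, 62.0 in No Dox EXOSC10, 164.0 in Dox IgG and 144.0 in No Dox IgG. After scaling, the EXOSC10 libraries were close to each other at 11.3 and 11.8 CPM. Their ratio was -0.06 (-0.49 to 0.39), at the middle of all genes with 49.9% of them below it. CERT1, the START-domain protein that carries ceramide to the Golgi for this reaction, had 53.3 reads in Dox EXOSC10, 25.4 in No Dox EXOSC10, 42.3 in Dox IgG and 10.6 in No Dox IgG. Its EXOSC10 ratio was -0.33 (-1.06 to 0.39) on fewer than 100 reads, and equality lies well inside that interval.

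SMPD4, a membrane-bound neutral sphingomyelinase, returns sphingomyelin to ceramide. It had 147.6 reads in Dox EXOSC10, 94.3 in No Dox EXOSC10, 29.7 in Dox IgG and 29.7 in No Dox IgG. Scaled levels were 10.5 CPM in Dox EXOSC10 and 17.9 CPM in No Dox EXOSC10, a ratio of -0.76 (-1.15 to -0.38). Only 10.1% of genes with 100 reads were below it. The ratio was -0.21 with the reads of MZT2B, which overlaps SMPD4, added, and -0.24 with those of the copy SMPD4BP added, an alternative added once the values were known. With total counts it was 0.26, so the direction of SMPD4 is not settled.

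The ceramidases release sphingosine from ceramide. ASAH1, the lysosomal acid ceramidase, had 137.0 reads in Dox EXOSC10, 47.1 in No Dox EXOSC10, 31.0 in Dox IgG and 12.0 in No Dox IgG. Its EXOSC10 ratio was 0.12 (-0.36 to 0.63). ACER3, the alkaline ceramidase of the endoplasmic reticulum and Golgi, had 91.7 reads in Dox EXOSC10, 25.5 in No Dox EXOSC10, 4.23 in Dox IgG and 1.41 in No Dox IgG. Its EXOSC10 ratio was 0.42 (-0.22 to 1.13). Neither interval excludes equality, but both values rest on the sum of 2 entries and were higher, 1.86 for ASAH1 and 1.61 for ACER3, with the most-read entry alone.

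Sphingosine released by these enzymes is phosphorylated by sphingosine kinases, and sphingosine 1-phosphate is cleaved irreversibly by SGPL1. SGPL1 had 209.0 reads in Dox EXOSC10, 51.0 in No Dox EXOSC10, 44.0 in Dox IgG and 26.0 in No Dox IgG. Scaled levels were 14.9 CPM in Dox EXOSC10 and 9.71 CPM in No Dox EXOSC10, and the ratio was 0.61 (0.17 to 1.09), or 1.52-fold, above 85.9% of genes. It was positive under all 5 scalings, from 0.50 to 1.64. SPHK2, the sphingosine kinase found largely in the nucleus and mitochondria, had 38.9 reads in Dox EXOSC10, 26.5 in No Dox EXOSC10, 0.252 in Dox IgG and 15.8 in No Dox IgG. Its EXOSC10 ratio was -0.82 (-1.61 to -0.09) on under 100 reads, and 0.17 with total counts. CERK, which phosphorylates ceramide itself, was the member with the most reads, 331.0 in Dox EXOSC10, 152.0 in No Dox EXOSC10, 56.0 in Dox IgG and 41.0 in No Dox IgG. Its EXOSC10 ratio was -0.29 (-0.58 to -0.01), with an upper bound next to equality and a value of 0.74 with total counts.

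Scaling bears on the sign of all such values. Total counts move the median EXOSC10 ratio of all genes with 100 reads by 1.03, with 3150 genes 2-fold higher and 8 lower in place of 384 and 276, and the members moved with it: SGMS1, CERT1, SMPD4, SPHK2 and CERK turned positive. Positions among all genes, such as the 91.3% for UGCG and 10.1% for SMPD4, compare genes within the same libraries.

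**Figure D2:**
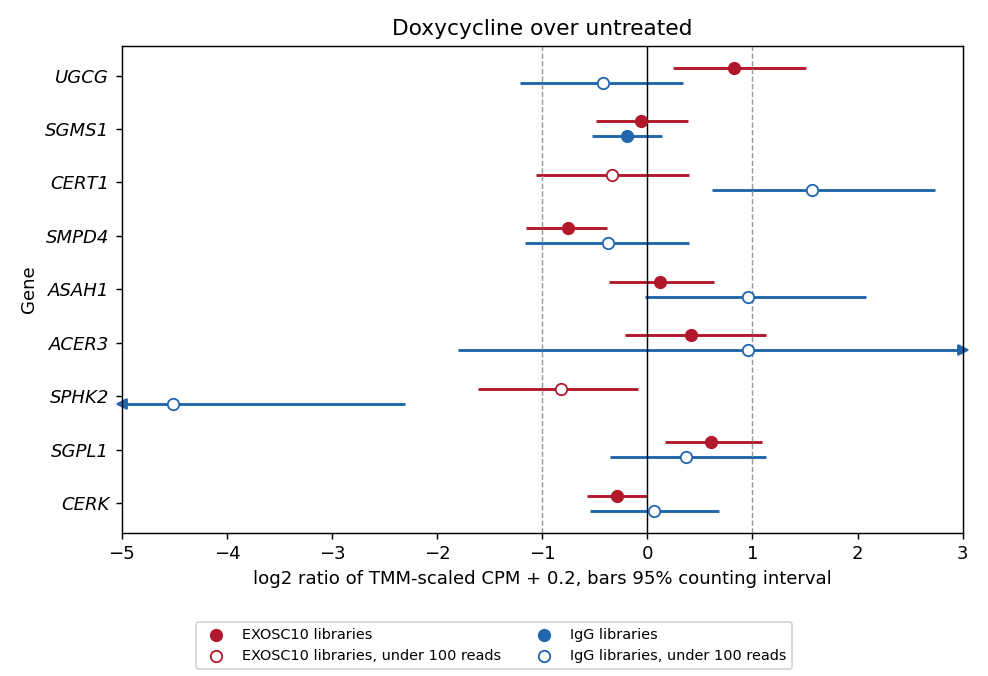
log2 ratio of doxycycline over untreated for each mRNA, with the EXOSC10 libraries above the IgG libraries, bars for the 95% counting interval, open points for under 100 reads, dashed lines at 2-fold and arrows where an interval runs past the axis. UGCG is at 0.83 in the EXOSC10 pair and -0.42 in the IgG pair, and CERT1 at -0.33 and 1.56.

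The same comparison in the IgG libraries gives the background of the precipitation. Only SGMS1 held 100 reads there, at -0.20 (-0.53 to 0.13), so 0 of 1 member counted as higher or lower, where 2.78% of 3027 genes were higher and 3.80% lower, 6.57% in all. UGCG was at -0.42 (-1.21 to 0.34), SGPL1 at 0.37 (-0.36 to 1.13), SMPD4 at -0.38 (-1.17 to 0.40) and CERK at 0.06 (-0.54 to 0.68), none distinguishable from equality at this depth. CERT1 had 12.4 scaled CPM in Dox IgG and 4.06 in No Dox IgG, a ratio of 1.56 (0.62 to 2.74). ASAH1 was at 0.95 (-0.02 to 2.08), with 9.08 CPM in Dox IgG and 4.59 CPM in No Dox IgG. SPHK2 was 6.86-fold lower in Dox IgG than in No Dox IgG when Dox IgG was set at a floor of 3 reads. Its interval reached up to -2.31 on the log2 scale. ACER3 had too few IgG reads for its ratio to be read.

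The change of enrichment is the EXOSC10 over IgG ratio with doxycycline minus that in untreated cells. SGMS1 was the 1 member with 100 reads in each antibody's pair, at 0.14 (-0.39 to 0.67), and thus 0 members counted as higher or lower, where 4.75% of 2946 genes were higher and 10.9% lower. Below that minimum, UGCG was at 1.25 (0.31 to 2.19) and CERT1 at -1.90 (-3.09 to -0.71). Both kept their sign under all 5 scalings, although CERT1 was at -0.26 with total counts, where UGCG was at 2.89. The UGCG value came mostly from the EXOSC10 pair, and that of CERT1 mostly from the IgG pair.

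The sphingomyelin synthase mRNA had the lowest EXOSC10 over IgG ratio of the 9 members in both treatments, although its interval overlapped that of CERT1 with doxycycline and that of UGCG untreated. SGMS1 was 2-fold lower with EXOSC10 in both treatments, at -2.06 (-2.41 to -1.76) with doxycycline and -2.20 (-2.68 to -1.78) without. It was the 1 member of 6 with 100 reads to reach 2-fold with doxycycline, where 27% of 6279 genes were lower and 13.3% higher, 40.3% in all. It was also the 1 member of 3 untreated, where 36.8% of 3619 genes were lower and 4.95% higher, 41.8% in all. Of those genes, 10.4% with doxycycline and 5.28% untreated lay below SGMS1. Total counts move the median ratio of all genes by 2.46 with doxycycline and 0.82 untreated, and SGMS1 was then at 0.41 and -1.39, so its sign with doxycycline depends on the scaling. The genes 2-fold higher and lower were then 5080 and 34 with doxycycline, in place of 835 and 1697, and 1133 and 522 untreated, in place of 179 and 1333. With the total of reads outside ribosomal RNA they were 3258 and 662 with doxycycline and 1385 and 304 untreated.

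CERK and ACER3 lay on the other side of IgG. CERK had 23.6 and 28.9 scaled CPM in the Dox and No Dox EXOSC10 libraries, against 16.4 and 15.7 CPM in the Dox and No Dox IgG libraries. Its ratios were 0.52 (0.11 to 0.96) with doxycycline and 0.87 (0.38 to 1.42) untreated. ACER3 had 6.53 and 4.84 scaled CPM in the Dox and No Dox EXOSC10 libraries, against 1.24 and 0.540 CPM in the Dox and No Dox IgG libraries. Its ratios of 2.23 (1.03 to 4.24) and 2.77 (0.88 to 7.22) rest on 4.23 and 1.41 IgG reads. Both genes kept their sign under all 5 scalings in each treatment.

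The remaining members were close to IgG in 1 treatment or both. UGCG was at 0.07 (-0.51 to 0.70) with doxycycline and -1.18 (-2.01 to -0.42) untreated. CERT1 was at -1.66 (-2.32 to -1.09) with doxycycline and 0.24 (-0.83 to 1.44) untreated. SMPD4 was at 0.27 (-0.30 to 0.90) and 0.65 (0.05 to 1.31), ASAH1 at 0.10 (-0.47 to 0.72) and 0.94 (0.03 to 2.02), and SGPL1 at 0.21 (-0.27 to 0.71) and -0.04 (-0.74 to 0.70), each with doxycycline first. SPHK2 was 3.15-fold higher with EXOSC10 in doxycycline-treated cells when IgG, with under 1 read, was set at a floor of 3 reads. Its interval began at 1.29 on the log2 scale. In untreated cells SPHK2 was at -0.25 (-1.21 to 0.74). Over the 9 members the median was 0.21 with doxycycline and 0.24 untreated, beside 0.26 and 0.03 over all genes with 20 reads.

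The antibody could be tested over all 4 libraries with treatment as a covariate, with limma (variance trend on, Benjamini-Hochberg adjustment over 9583 genes). This leaves 1 residual degree of freedom, and the other treatment stands in for replication. The variance of each gene was therefore drawn toward a trend over all tested genes, and the p-values depend on that trend. SGMS1 was lower with EXOSC10, with a log2 ratio of -2.13 ± 0.29 (SE), in both treatments and with an adjusted p of 0.00182. It was the 1 call among the 9 members, where 16.3% of all genes were called lower and 1.27% higher, 1558 and 122 genes. That balance depends on the scaling, since limma called 589 genes lower and 3516 higher with the total of reads outside ribosomal RNA, and 7 lower and 537 higher with total counts. ACER3, at 2.50 ± 0.80 (SE), missed the threshold with a limma adjusted p of 0.0677, as did CERK at 0.70 ± 0.31 (SE) with 0.172. ACER3 passed it in 4 alternatives, total counts (limma adjusted p = 0.0242), upper-quartile factors (0.0368), the total outside ribosomal RNA (0.0172) and a pseudocount of 1 CPM (0.0295), and its highest value was 0.173. CERK passed it with the total outside ribosomal RNA alone (limma adjusted p = 0.0131), with a highest value of 0.322. The limma adjusted p of SGMS1 ranged from 3.30e-09 to 0.813 over the alternatives. It passed the threshold in all but 2, total counts (0.813) and a fit without the trend (0.12), which called no gene at all although 2515 had an unadjusted p below 0.05.

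The matching limma test of doxycycline, with antibody as the covariate, called 0 of 9583 genes, or 0%, and 0 of the 9 members. At an unadjusted p below 0.05 it held 458 genes, SPHK2 among them at -2.66 ± 1.04 (SE) with an adjusted p of 0.840, a value that rests on the Dox IgG library. The adjusted p of UGCG was 0.957 and that of SGPL1 0.846.

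**Figure D3:**
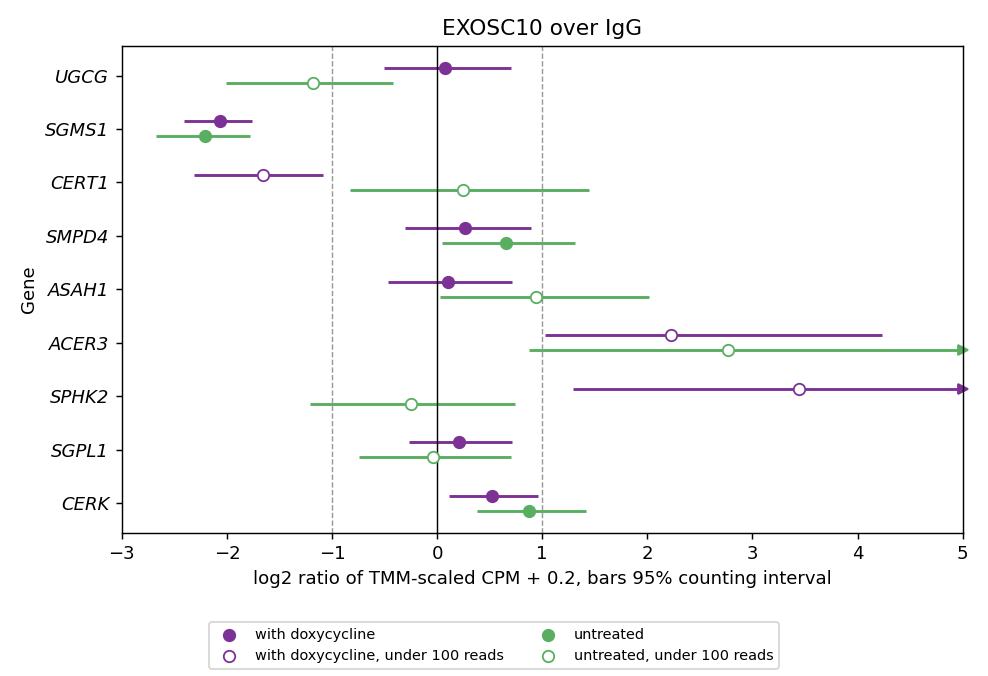
log2 ratio of EXOSC10 over IgG for each mRNA, doxycycline-treated above untreated, with 95% counting intervals, open points for under 100 reads, dashed lines at 2-fold and arrows where an interval runs past the axis. SGMS1 lies at -2.06 and -2.20, with an interval that overlaps CERT1 (-1.66) with doxycycline and UGCG (-1.18) untreated, and CERK lies at 0.52 and 0.87.

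A symbol can have several entries in the table, and the file does not name what each one is. UGCG, SGMS1, SGPL1 and CERK had 1 entry each and whole reads in all 4 libraries, to within 0.05 of a read. CERT1 had 3 entries, SMPD4 5, ASAH1 2, ACER3 2 and SPHK2 3, and their values were sums of entries that mostly held fractions of reads. SPHK2 placed nearly all of its few reads on a different entry in each library that held more than 1 of them. These were 38.9 reads in Dox EXOSC10, 26.5 in No Dox EXOSC10 and 15.8 in No Dox IgG. Entry 1 held 96.3% in Dox EXOSC10, entry 2 held 91.2% in No Dox EXOSC10 and entry 3 held 99.96% in No Dox IgG. ASAH1 had 33.8 of its 47.1 reads in No Dox EXOSC10 on entry 1, which held no full read in the other 3 libraries.

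ACER3 showed a fixed division in 3 libraries, with 58.8% on entry 1 in No Dox EXOSC10, Dox IgG and No Dox IgG, and 0.201% in Dox EXOSC10, where entry 2 took 91.5 reads. In SMPD4, entry 3 held 68.5% of the reads in Dox EXOSC10 and 62.3% in Dox IgG, against 15.9% in No Dox EXOSC10 and 0.0204% in No Dox IgG. CERT1 had entry 3 with 14.1 reads in Dox EXOSC10 and none elsewhere. The sum over entries was used for every ratio above. With the most-read entry alone in place of the sum, SPHK2 was at 3.26 in the EXOSC10 comparison in place of -0.82, SMPD4 at 1.27 in place of -0.76, ASAH1 at 1.86 in place of 0.12 and ACER3 at 1.61 in place of 0.42. ASAH1 over IgG untreated was then at -0.80 in place of 0.94.

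**Figure D4:**
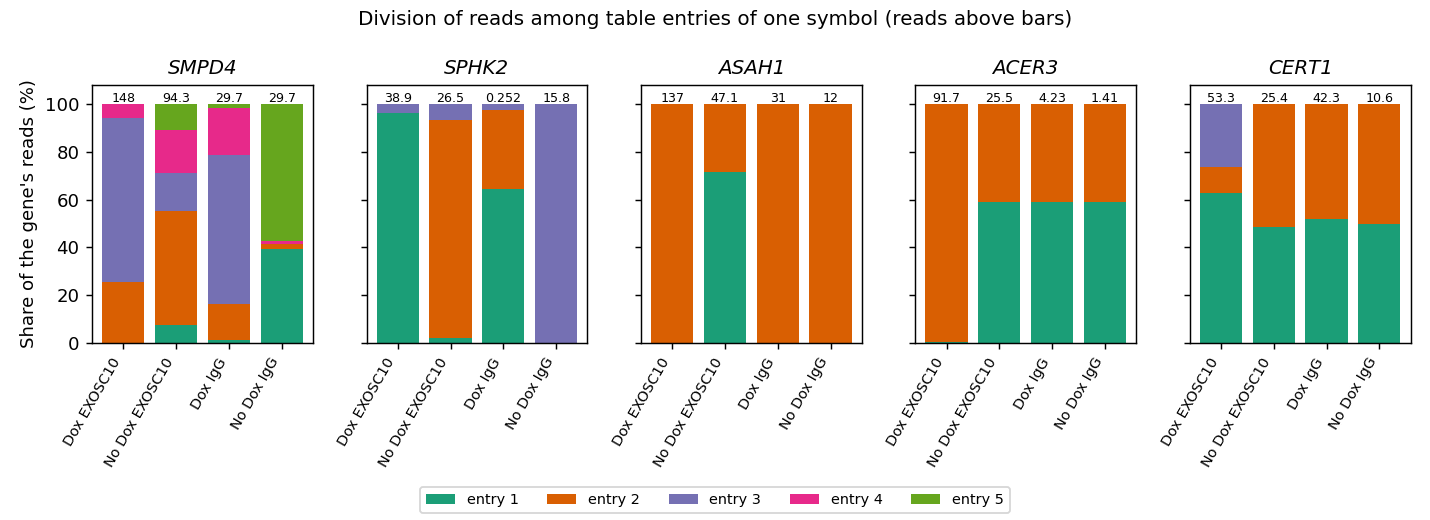
Share of the reads of each symbol that fell on each of its table entries (percent), in the 4 libraries, for the 5 mRNAs with several entries, with the number of reads above each bar. The bars of SPHK2 and SMPD4 change colour from library to library, whereas ACER3 has the same division in every library except Dox EXOSC10.

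The loci are spread over the genome. On GRCh38 they lie on chromosome 9 from 111896814 to 111935369 (UGCG), chromosome 10 from 50305600 to 50625184 (SGMS1) and from 70815948 to 70881184 (SGPL1), chromosome 5 from 75368486 to 75511981 (CERT1) and chromosome 2 from 130151392 to 130181757 (SMPD4). The others are on chromosome 8 from 18055992 to 18084961 (ASAH1), chromosome 11 from 76860918 to 77026797 (ACER3), chromosome 19 from 48619506 to 48630405 (SPHK2) and chromosome 22 from 46684410 to 46738252 (CERK). CERT1 overlaps POLK, SMPD4 overlaps MZT2B and SPHK2 overlaps DBP, and the counting rule is not given in the sources used here, so reads in the shared stretches cannot be assigned with certainty. With POLK added, CERT1 over IgG with doxycycline was -0.62 in place of -1.66.

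Other genes of the pathway were taken from lists chosen with earlier results of these data known. In the sphingomyelin list, 3 of 7 genes had an entry. SGMS2, the plasma membrane sphingomyelin synthase, had 78.0 reads in Dox EXOSC10, 0.773 in No Dox EXOSC10, 10.7 in Dox IgG and 0.213 in No Dox IgG. With the untreated library set at a floor of 3 reads, it was 9.73-fold higher with doxycycline in the EXOSC10 libraries and 2.73-fold higher in the IgG libraries. The log2 intervals began at 2.95 with EXOSC10 and 0.90 with IgG. Its change of enrichment was 0.48 (-4.73 to 5.70). All of these values rest on under 100 reads and on fractions of reads. SAMD8, a synthase of ceramide phosphoethanolamine, was at 0.50 (0.10 to 0.93) between the EXOSC10 libraries.

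CERT1 works at contact sites of the endoplasmic reticulum and the Golgi, where VAPA anchors it and PI4KB makes the lipid it binds. All 8 genes of the list of transfer proteins and partners had an entry, and limma called VAPA (-1.77 ± 0.26 SE, adjusted p = 0.00208) and PI4KB (-1.33 ± 0.28 SE, adjusted p = 0.0105) lower with EXOSC10 and 0 higher, so 2 of 8 beside 16.3% of all genes. VAPA was at -1.97 (-2.10 to -1.85) with doxycycline and -1.57 (-1.74 to -1.41) untreated. The ceramide 1-phosphate carrier CPTP lay on the other side, at 1.84 (0.84 to 3.28) and 1.11 (0.18 to 2.24). PLEKHA8 (FAPP2), which carries glucosylceramide made by UGCG, was the 1 gene of 7 with 100 reads to be 2-fold higher in Dox EXOSC10 than in No Dox EXOSC10, at 1.16 (0.67 to 1.74), where 5.83% of all genes were higher and 4.19% lower. The same shares are the background of the counts between the EXOSC10 libraries for the lists that follow.

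For glycosphingolipid synthesis, 6 of 10 genes had an entry and 0 of 2 with 100 reads reached 2-fold between the EXOSC10 libraries. B4GALT5, which adds galactose to glucosylceramide, was at -0.41 (-0.71 to -0.11), and UGT8, the galactosylceramide synthase, at 1.07 (0.20 to 2.23) on under 100 reads. For lysosomal breakdown, 11 of 13 genes had an entry and 0 of 9 reached 2-fold. ARSA was at -0.63 (-1.07 to -0.21), NEU1 at -0.57 (-1.02 to -0.14) and SCARB2, a lysosomal membrane protein, at 0.43 (0.14 to 0.73). In EXOSC10 over IgG with doxycycline, 6 of the 10 lysosomal genes with 20 reads had an interval above 0 and 0 had one below. Of all 10945 genes, 3555 were above and 2927 below. GLA, 1 of those 6 lysosomal genes, was at 2.55 (1.15 to 5.33). That value rests on 2.67 Dox IgG reads, and GLA over IgG was at 0.09 (-1.06 to 1.36) untreated. The list of other ceramidases held 1 gene with an entry of 5, NAAA, at 0.21 in the EXOSC10 comparison.

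Of the 15 genes of sphingosine 1-phosphate metabolism, export and receptors, 8 had an entry and 0 of 6 reached 2-fold between the EXOSC10 libraries. ALDH3A2, which oxidises the aldehyde left by SGPL1, was at 0.37 (0.10 to 0.66). SPHK1, the cytoplasmic sphingosine kinase, was higher with EXOSC10 than with IgG in doxycycline-treated cells, at 1.85 (0.85 to 3.33) on 6.79 IgG reads. In untreated cells SPHK1 was at 0.36 (-0.59 to 1.42). The exporter SPNS2 fell just short of 2-fold lower with EXOSC10 in doxycycline-treated cells, at -0.97 (-1.38 to -0.59). In untreated cells it was 2-fold lower, at -1.37 (-1.94 to -0.84), as were 36.8% of all genes. Limma called SPNS2 lower with EXOSC10 (-1.17 ± 0.34 SE, adjusted p = 0.0450).

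De novo synthesis, the arm that makes ceramide, had 13 of 17 genes with an entry and a median of -0.00 between the EXOSC10 libraries, beside -0.06 for the 9 members. KDSR, which makes dihydrosphingosine, was its 1 gene of 8 at 2-fold, at 1.07 (0.49 to 1.76). In EXOSC10 over IgG, limma called SPTLC2, a subunit of serine palmitoyltransferase, lower (-0.98 ± 0.29 SE, adjusted p = 0.0495) and 0 of 13 higher. These calls, 1 of 13 here and 1 of 9 among the members, stand beside the 16.3% of all genes called lower, and no difference between the arms was tested.

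**Figure D5:**
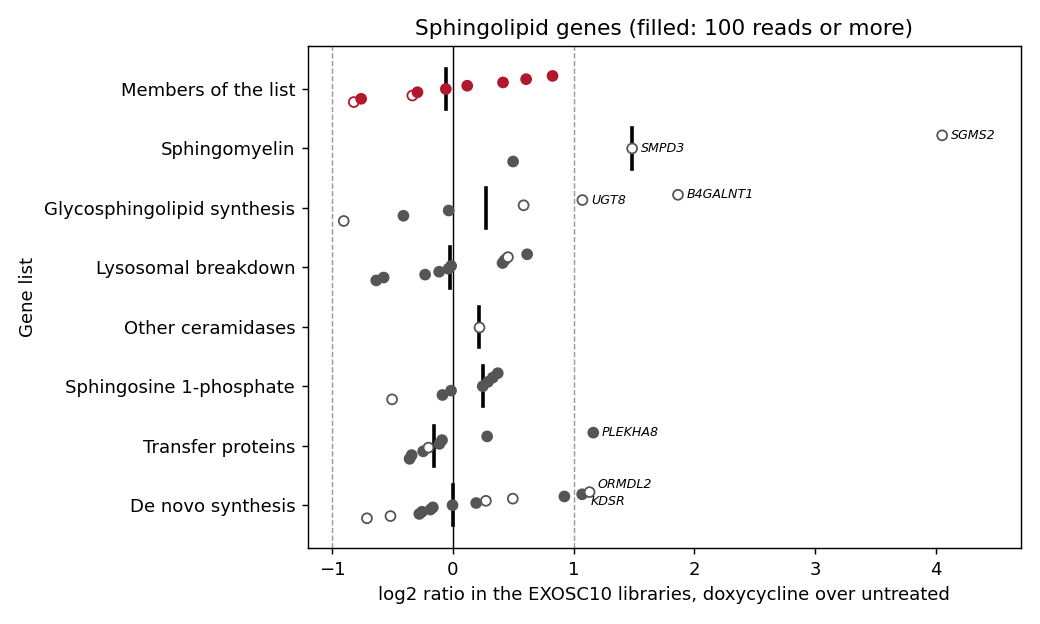
log2 ratio of doxycycline over untreated in the EXOSC10 libraries for each gene with at least 20 reads, by list, with filled points for 100 reads or more, black bars for the median and dashed lines at 2-fold. The members span -0.82 to 0.83, with a median of -0.06, and PLEKHA8 at 1.16 and KDSR at 1.07 are the filled points past 2-fold.

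The profile over the 4 libraries was compared with that of 7519 genes with at least 100 reads in all, by the Euclidean distance between centred log2 levels. Nearest to CERK were DDIT4 (0.05), WASHC2A (0.05) and SERPINE2 (0.06), and nearest to SGMS1 were GIT1 (0.05), WDR61 (0.07) and KLHDC2 (0.07), in log2 units. The profiles rest on 4 single libraries, and how many other genes come nearly as close was not counted.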

How the data were processed

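RNA from EXOSC10 and control IgG immunoprecipitates was sequenced in 4 libraries, 1 per group, grouped by their titles. The authors deposited 1 table of 24015 entries, read as CPM from its values, since each column summed to 1000000 plus a constant of 0.0001 per entry, which was taken off. STAR, Partek and hg38 are named, without versions, per the submitters' processing notes, and the counting rule is not given in the sources used here. All entries held 10.0 reads or more in some library, and genes that did not are missing from the values used here.

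Entries of a symbol were summed. Reads were estimated as CPM divided by the step on which low values lie, 0.181 CPM in Dox EXOSC10, 0.236 in No Dox EXOSC10, 0.132 in Dox IgG and 0.269 in No Dox IgG. Between 64.7% and 72.1% of genes in a library came within 0.05 of a whole read, so no count model was used. TMM (30% of ratios and 5% of levels trimmed at each end) gave factors of 2.55, 1.24, 0.451 and 0.702 in the same order. Ratios used a pseudocount of 0.2 CPM, and counts needed 100 reads and 2-fold. For the change of enrichment the 95% interval came from summed reciprocal reads. Under 1 read was treated as 0, with a floor of 3 reads per library. Tests used limma 3.58.1 in R 4.3.3 on log2(CPM + 0.2) for genes with at least 10 reads in 2 libraries, with Benjamini-Hochberg adjustment at 0.05. Code was tested on simulated data. Nothing in the labels says that libraries came from separate cultures, so p-values measure no spread between cultures. With 1 residual degree of freedom, they depend on variance shared over all tested genes as well as on the spread between these libraries.

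The members and lists were chosen with earlier results of these data known. All members were named, with up to 4 genes of each pathway list per comparison whose interval lay farthest from 0, genes overlapping a member, the genes of the design and the genes nearest in profile to the 2 members with the most reads. Some genes that this rule names are not reported here. Symbols and coordinates are from RefSeq GRCh38.p14, and 8 of the 10 members matched a promoter window. Alternatives were other scalings, pseudocounts and read minimums, the most-read entry alone, overlapping genes added, and fits without a filter, with a stricter one or without a trend.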

Additional observations from a re-analysis of the deposited data

Results flagged for a closer look

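In 3 members the doxycycline ratio pointed one way with EXOSC10 and the other way with IgG. They were picked by sign alone, and the share of all genes with such a difference was not counted. The interval included 0 for UGCG with IgG (-1.21 to 0.34), CERT1 with EXOSC10 (-1.06 to 0.39) and CERK with IgG (-0.54 to 0.68). Opposite directions are thus not established for any of the 3. Each pair holds 1 library per group, so the difference was not tested. UGCG, the glucosylceramide synthase, was at 0.83 with EXOSC10 and -0.42 with IgG, a difference of 1.25 (0.31 to 2.19) on the log2 scale. CERT1, the ceramide carrier, was at -0.33 with EXOSC10 and 1.56 with IgG, a difference of -1.90 (-3.09 to -0.71), and all of its libraries held fractions of reads. CERT1 had the same sign with both antibodies under 3 alternatives, at 0.67 and 0.92 with total counts, 0.10 and 1.37 with POLK added, and 0.02 and 1.58 with the most-read entry alone, EXOSC10 before IgG. CERK, the ceramide kinase, was at -0.29 with EXOSC10 and 0.06 with IgG, a difference of -0.36 (-0.999 to 0.288) whose interval includes 0, and with total counts the signs were turned, at 0.74 with EXOSC10 and -0.56 with IgG.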

How the results depend on the processing

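Of 118 alternative values of the counts and medians, 94 stayed within the limits set for them and 24 moved, for which the cause was not tested. The limits were wide. A median stayed if its shift was below the typical margin of the members' intervals, from 0.50 to 0.80. The median of EXOSC10 over IgG untreated thus stayed with total counts, at 1.03 in place of 0.24. Some counts had little room to move, as 1 member alone held 100 reads in the IgG pair. With total counts, the members past 2-fold were 4 of 7 higher between the EXOSC10 libraries and 5 of 6 for EXOSC10 over IgG with doxycycline. They were 3 of 3 (2 higher, 1 lower) untreated and 1 of 1 for the change of enrichment. Over all genes, 3150 were then higher and 8 lower of 6585, and 5080 and 34 of 6279. Untreated they were 1133 and 522 of 3619, and for the change of enrichment 2275 and 11 of 2946. The medians were then 0.97 and 2.67 for the EXOSC10 libraries and for EXOSC10 over IgG with doxycycline, beside 1.04 and 2.65 over all genes, and SGMS1 over IgG with doxycycline turned to 0.41. Limma then called 1 member, ACER3, higher. With the total of reads outside ribosomal RNA, counts were 1 between the EXOSC10 libraries, where 587 genes were higher and 156 lower. For EXOSC10 over IgG they were 6 (5 higher, 1 lower) with doxycycline, where 3258 genes were higher and 662 lower. Untreated they were 3 (2 higher, 1 lower), where 1385 genes were higher and 304 lower. Medians for EXOSC10 over IgG were then 1.26 with doxycycline and 1.24 untreated, beside 1.29 and 1.05 over all genes. Limma called 6 members (5 higher, 1 lower), beside 3516 genes higher and 589 lower. With upper-quartile factors, 2 members (1 higher, 1 lower) passed 2-fold for EXOSC10 over IgG untreated, where 291 of 3619 genes were higher and 1185 lower. Limma then called 2 members (1 higher, 1 lower), beside 479 of 9583 genes higher and 1489 lower. A pseudocount of 1 CPM also gave 2 limma calls among the members, beside 333 genes called higher and 1795 lower. A fit without the trend gave 0 among the members and 0 over all genes. The most-read entry alone gave 3 of 7 members higher and a median of 0.83 between the EXOSC10 libraries, beside 0.14 over all genes. Its median for EXOSC10 over IgG untreated was -0.80 over 5 members, beside -0.004 over all genes. The share of all genes past 2-fold was not counted for this alternative, nor for the next. With a minimum of 20 reads, counts were 1 for IgG, 4 and 3 for EXOSC10 over IgG with doxycycline and untreated, and 2 for the change of enrichment. A minimum of 500 reads left 0 members in each comparison. No limma alternative for doxycycline called a member. The labels give no replicate numbers, so libraries were matched by treatment only, and limma's treatment term compared the antibodies within each treatment. The IgG libraries limit the depth of every value that uses them, since 1 of 9 members held 100 reads there.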

Other observations

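Genes that share sequence or position with a member had their own values in the 4 libraries. POLK, a DNA polymerase gene that overlaps CERT1, had 68.3 reads in Dox EXOSC10, 17.0 in No Dox EXOSC10, 3.59 in Dox IgG and 2.69 in No Dox IgG. MZT2B, a gamma-tubulin complex gene that overlaps SMPD4, had 138.0, 30, 19.0 and 22.0 reads in the same libraries. SMPD4BP, a copy of SMPD4, had 73.4, 3.76, 5.31 and 6.34 reads. DBP, a circadian transcription factor gene that overlaps SPHK2, had 10.0, 18.4, 0 and 9 reads, and the Dox IgG library thus held under 1 read of both genes.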
